A study of Mus musculus with 36 samples.

Results

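The 9 genes described here encode enzymes of glycolysis (Gpi1, Aldoa, Tpi1, Gapdh, Pgk1, Pgam1, Eno1, Pkm and Ldha). They were given as a list, among 21900 protein-coding genes of the RefSeq table (assembly GRCm38.p6, the assembly of mm10), and were placed at their positions in that table. At each gene, summits of the TATA-binding protein TBP were taken within 500 bp of either gene end, and the nearest summit was taken otherwise. TBP had been profiled by CUT&RUN, in which a nuclease tethered to an antibody releases the DNA around the bound protein, in embryonic stem (ES) cells of the mouse, from 2 lines. The genotype of RT7 cells is R26CreERT2/+;Taf7flox/flox and that of RT10 cells R26CreERT2/+;Taf10flox/flox. Both lines thus carry a tamoxifen-responsive Cre recombinase on 1 Rosa26 allele, and both were grown with serum, leukemia inhibitory factor and the kinase inhibitors CHIR99021 and PD0325901. The 4 groups were RT7 with 4-hydroxytamoxifen (4-OHT), which induces deletion of Taf7, RT7 with ethanol (EtOH), RT10 with 4-OHT, which induces deletion of Taf10, and RT10 with EtOH, each treated from day 1 to day 3 of culture. Each group has 2 TBP libraries and 1 IgG control library, and 1 list of TBP summits over IgG, so no difference between treatments has a replicate check and no test was run. How completely the floxed gene was deleted in each group was not analysed here, and whether each line is a single clone is not stated in the labels.

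TBP is a DNA-binding subunit of TFIID, the general factor that nucleates the RNA polymerase II preinitiation complex at promoters, and TAF7 and TAF10 are TFIID subunits, of which TAF10 is also a subunit of the SAGA coactivator. Glycolysis converts glucose to pyruvate, and lactate dehydrogenase reduces pyruvate to lactate. Pluripotent stem cells are known for a high glycolytic rate, and most of these enzymes are encoded by broadly expressed genes with CpG-rich promoters. The hypoxia factor HIF1 and the oncoprotein MYC are known activators of many of them.

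The score of a summit is the deposited −log10 of its q-value, and its rank is its place within its own list, with 1 for the highest score and tied scores sharing the best rank. The lists held 1379 summits for RT7 4-OHT, 2666 for RT7 EtOH, 2188 for RT10 4-OHT and 3102 for RT10 EtOH, with median scores of 5.52, 5.57, 5.95 and 5.84. Read depth is unknown, so scores and ranks are read within a list and do not measure a change between lists. Where a summit is missing, no peak passed the authors' threshold, and TBP below it is not shown to be absent. Among 6 defining ES cell genes, Nanog had a summit in all 4 lists, Zfp42 in both EtOH lists, Sox2 in RT10 EtOH, and Pou5f1, Klf4 and Esrrb in none, and no RNA level was available to check the cell type.

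The promoters of the 6 genes with a summit near a start in at least 1 list, and of Ldha as a member without a summit, are shown to place the summits against the start and to compare their letters. Each sequence covers 250 bases before to 50 after an annotated start in RefSeq (GRCm38.p6), 5′ to 3′ on the gene's strand, and where a gene has several starts the one at or nearest its summit is shown, with the upstream start for Ldha. Capitals mark matches to motifs on either strand. The GC box was searched as GGGCGG and the CCAAT box as CCAAT. The E-box was searched only as CACGTG, and the core of the hypoxia response element, which overlaps it, only as ACGTG. Other forms of either were not searched. The cyclic AMP response element was searched as TGACGTCA. A TATA box was searched as TATANA, where N is any base, and as TATAAA, each match of which is also a match of the looser form. Matches of neighbouring motifs run together in capitals.
Tpi1 (chr6:124814109-124814408, minus strand): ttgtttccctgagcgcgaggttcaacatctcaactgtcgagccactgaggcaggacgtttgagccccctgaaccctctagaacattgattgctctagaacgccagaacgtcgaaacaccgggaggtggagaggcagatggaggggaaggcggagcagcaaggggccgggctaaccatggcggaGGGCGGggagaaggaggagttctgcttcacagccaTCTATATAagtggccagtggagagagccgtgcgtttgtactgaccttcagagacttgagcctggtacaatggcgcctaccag
Gapdh (chr6:125165724-125166023, minus strand): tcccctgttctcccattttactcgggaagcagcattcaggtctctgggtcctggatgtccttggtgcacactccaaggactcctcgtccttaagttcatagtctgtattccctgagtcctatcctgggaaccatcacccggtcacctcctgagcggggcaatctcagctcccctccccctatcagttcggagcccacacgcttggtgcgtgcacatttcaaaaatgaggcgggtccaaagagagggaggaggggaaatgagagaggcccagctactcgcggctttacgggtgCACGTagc
Aldoa (chr7:126799205-126799504, minus strand): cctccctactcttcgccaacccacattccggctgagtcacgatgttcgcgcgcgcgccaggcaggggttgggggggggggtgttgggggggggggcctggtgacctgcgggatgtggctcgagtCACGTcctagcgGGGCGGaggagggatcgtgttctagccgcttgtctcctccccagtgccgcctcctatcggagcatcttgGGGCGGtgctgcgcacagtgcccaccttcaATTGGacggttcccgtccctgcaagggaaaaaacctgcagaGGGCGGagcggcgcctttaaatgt
Pgk1 (chrX:106186850-106187149, plus strand): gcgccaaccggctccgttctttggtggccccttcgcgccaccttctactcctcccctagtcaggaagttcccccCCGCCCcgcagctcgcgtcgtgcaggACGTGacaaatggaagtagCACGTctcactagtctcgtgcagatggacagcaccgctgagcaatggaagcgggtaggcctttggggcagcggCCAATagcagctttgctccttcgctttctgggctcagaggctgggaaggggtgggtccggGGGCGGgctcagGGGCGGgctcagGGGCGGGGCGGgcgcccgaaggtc
Pkm (chr9:59656326-59656625, plus strand): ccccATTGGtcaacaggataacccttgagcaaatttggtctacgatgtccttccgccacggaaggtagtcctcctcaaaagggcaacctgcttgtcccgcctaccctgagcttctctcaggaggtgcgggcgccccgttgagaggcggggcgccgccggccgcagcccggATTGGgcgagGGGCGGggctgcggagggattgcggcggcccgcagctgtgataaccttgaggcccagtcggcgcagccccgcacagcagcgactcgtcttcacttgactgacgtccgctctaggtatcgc
Eno1 (chr4:150236947-150237246, plus strand): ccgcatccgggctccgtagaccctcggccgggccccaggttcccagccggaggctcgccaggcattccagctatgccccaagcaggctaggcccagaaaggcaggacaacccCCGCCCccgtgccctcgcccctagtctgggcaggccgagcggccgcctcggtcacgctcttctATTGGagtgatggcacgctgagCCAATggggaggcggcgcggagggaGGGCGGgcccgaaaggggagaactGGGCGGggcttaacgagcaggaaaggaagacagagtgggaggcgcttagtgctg
Ldha (chr7:46845554-46845853, plus strand): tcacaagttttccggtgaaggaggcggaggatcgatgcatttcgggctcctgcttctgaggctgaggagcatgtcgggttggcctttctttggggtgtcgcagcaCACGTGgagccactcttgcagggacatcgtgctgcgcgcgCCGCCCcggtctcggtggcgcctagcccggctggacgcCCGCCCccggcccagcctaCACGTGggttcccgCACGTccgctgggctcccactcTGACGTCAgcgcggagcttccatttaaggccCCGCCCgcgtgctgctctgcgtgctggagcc

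TBP summits were found at few of the 9 genes after 4-OHT, and at more of them in EtOH in RT10. In RT7 the counts differed by 1 gene and became equal when the EtOH list was no longer than the 4-OHT list. Within 500 bp of a gene end, 1 of 9 genes had a summit in RT7 4-OHT (Tpi1), against 2 in RT7 EtOH (Gapdh and Tpi1). In RT10 the counts were 2 in 4-OHT (Gapdh and Tpi1), against 5 in EtOH (Pgk1, Pkm, Eno1, Gapdh and Tpi1). Of all 21900 protein-coding genes, which include genes of every tissue, 2.74% had such a summit in RT7 4-OHT, 5.32% in RT7 EtOH, 3.87% in RT10 4-OHT and 5.96% in RT10 EtOH. Gpi1, Aldoa, Pgam1 and Ldha had none in any list by this rule.

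The outermost gene end is not always a promoter. The single annotated start of Gapdh lies 694 bp inside the gene record, the starts of Aldoa lie 547, 1740 and 1816 bp inside it, and those of Ldha 3530 and 4808 bp inside it. When summits were instead taken within 500 bp of any annotated start, a rule added after the summits had been seen, Gapdh was bound in all 4 lists and Aldoa in both EtOH lists. The counts were then 2 of 9 genes in RT7 4-OHT, against 3 in RT7 EtOH, and 2 in RT10 4-OHT, against 6 in RT10 EtOH. The share of 17492 protein-coding genes with an annotated start that were bound by this rule was 3.08% in RT7 4-OHT, 5.95% in RT7 EtOH, 4.28% in RT10 4-OHT and 6.83% in RT10 EtOH. Each list thus held a larger share of the 9 members than of all protein-coding genes, which was not tested. Gpi1, Pgam1 and Ldha remained without a summit in any list.

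**Figure D1:**
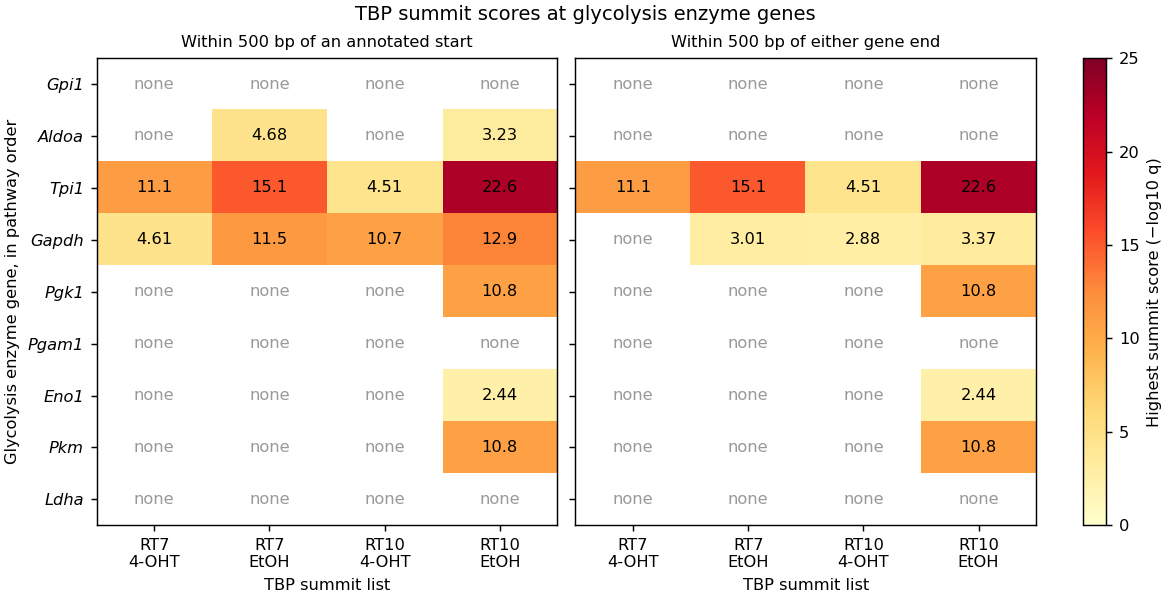
Highest TBP summit score (−log10 q, colour and printed value) at each glycolysis enzyme gene, listed down the page in pathway order, in the RT7 4-OHT, RT7 EtOH, RT10 4-OHT and RT10 EtOH lists. The left panel takes summits within 500 bp of an annotated start and the right panel within 500 bp of either gene end, "none" marks no summit, and colours are to be compared within a list. Tpi1 has a summit in every list under both rules, Gapdh in every list at its start, and Gpi1, Pgam1 and Ldha have none.

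**Figure D2:**
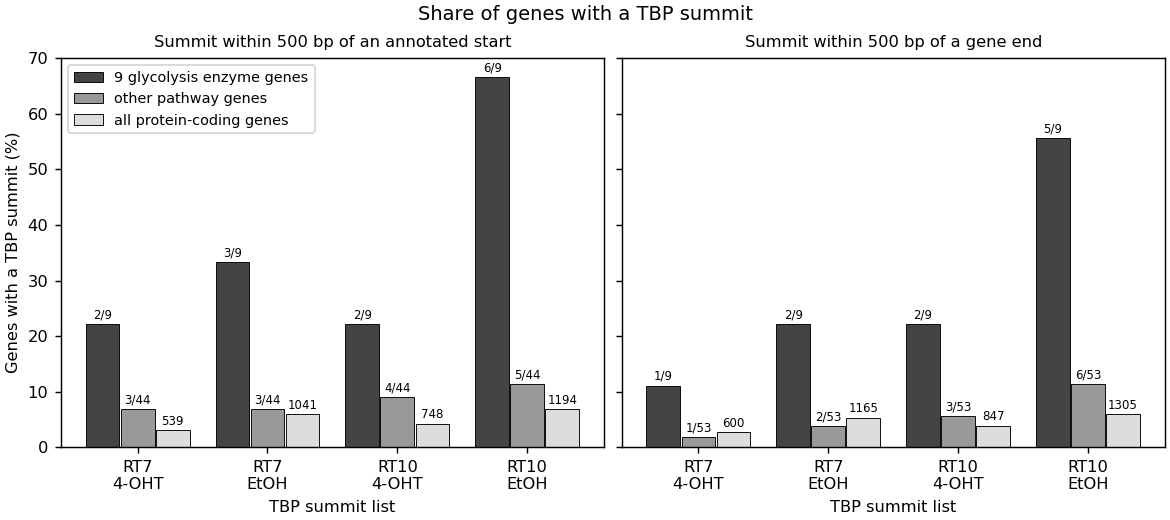
Share of genes with a TBP summit (%), for the 9 glycolysis enzyme genes, the other pathway genes and all protein-coding genes, in the 4 lists, with a summit within 500 bp of an annotated start (left) or of a gene end (right). Numbers above the bars are genes bound, with the number measured after the slash. The tallest bar is that of the 9 genes in RT10 EtOH, with 6 bound at a start and 5 at a gene end.

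Among the genes of the hexose and triose steps, Tpi1 was bound in every list. Tpi1 encodes triosephosphate isomerase, which interconverts the triose phosphates made by aldolase, and lies on chromosome 6 (124810586 to 124814158, mm10, minus strand). Its summit scored 11.1 in RT7 4-OHT (rank 304 of 1379), against 15.1 in RT7 EtOH (rank 457 of 2666). In RT10 it scored 4.51 in 4-OHT (rank 1393 of 2188), against 22.6 in EtOH (rank 293 of 3102). The scores lay above those of 78.0%, 82.8%, 36.3% and 90.4% of the summits of RT7 4-OHT, RT7 EtOH, RT10 4-OHT and RT10 EtOH, so that Tpi1 stood above the upper quartile of 3 lists and below the median of RT10 4-OHT. All 4 summits lay downstream of the annotated start, at 128 bp in RT7 4-OHT, 19 bp in RT7 EtOH, 98 bp in RT10 4-OHT and 53 bp in RT10 EtOH. The 4-OHT and EtOH summits were 109 bp apart in RT7 and 45 bp apart in RT10.

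Aldoa encodes aldolase A, which splits fructose bisphosphate into triose phosphates (chromosome 7, 126795234 to 126800994, minus strand). It had a summit in both EtOH lists and in neither 4-OHT list. The EtOH summits lay inside the gene record, 1742 bp from its end in RT7 and 1752 bp in RT10, but 2 bp and 12 bp downstream of the annotated start at 126799254, whose promoter is printed above. Both summits also lay upstream of a further start at 126799178, within 500 bp of it, and which of these starts they belong to cannot be told. Their scores were 4.68 in RT7 EtOH (rank 1559 of 2666) and 3.23 in RT10 EtOH (rank 2406 of 3102), both below the medians of their lists. The nearest 4-OHT summits lay 215759 bp from the EtOH summit in RT7 and 177041 bp in RT10. No summit lay near the start at 126800447.

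Gpi1 encodes glucose-6-phosphate isomerase, which converts glucose 6-phosphate to fructose 6-phosphate (chromosome 7, 34201327 to 34230336, minus strand). No list held a summit within the gene or near its ends. The nearest summit lay 491255 bp away in RT7 4-OHT, against 491339 bp in RT7 EtOH. It lay 491414 bp away in RT10 4-OHT, against 491412 bp in RT10 EtOH.

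Of the genes after the triose step, Gapdh had the most summits. Gapdh encodes glyceraldehyde-3-phosphate dehydrogenase, the enzyme that reduces NAD+ in glycolysis, and lies on chromosome 6 (125161852 to 125166467, minus strand). Its highest summit in each list lay downstream of the annotated start at 125165773, by 270 bp in RT7 4-OHT, 220 bp in RT7 EtOH, 274 bp in RT10 4-OHT and 318 bp in RT10 EtOH. These summits are outside the gene end rule, lying 914 to 1012 bp from the gene end. They scored 4.61 in RT7 4-OHT (rank 810 of 1379), against 11.5 in RT7 EtOH (rank 623 of 2666). In RT10 they scored 10.7 in 4-OHT (rank 566 of 2188), against 12.9 in EtOH (rank 658 of 3102). Gapdh thus stood above 41.2% of the summits of RT7 4-OHT and above 73.6% to 77.9% of those of the other 3 lists. The 4-OHT and EtOH summits were 50 bp apart in RT7 and 44 bp apart in RT10.

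Weaker summits surrounded Gapdh. A summit just beyond the upstream gene end was present in both EtOH lists (scores 3.01 in RT7 and 3.37 in RT10), 77 bp and 73 bp from that end and 771 bp and 767 bp upstream of the annotated start, and in neither 4-OHT list. A summit at the downstream end, where the gene Iffo1 also ends within 500 bp, scored 2.88 in RT10 4-OHT and 3.01 in RT7 EtOH. These end summits stood above at most 23.2% of the summits of their lists, and they alone placed Gapdh among the genes bound at gene ends. RT7 4-OHT held an additional internal summit 619 bp downstream of the start (score 1.51, rank 1367 of 1379). The member summit nearest the 500 bp limit from inside was that of Eno1 in RT10 EtOH, at 435 bp. No member summit lay between that distance and 914 bp, where the internal Gapdh summit of RT7 EtOH lay, followed by those of RT7 4-OHT at 964 bp and RT10 4-OHT at 968 bp.

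Pgk1, Pkm and Eno1 had a summit in RT10 EtOH alone. Pgk1 encodes phosphoglycerate kinase, which makes ATP from 1,3-bisphosphoglycerate (chromosome X, 106187100 to 106203699, plus strand), and its summit lay 91 bp upstream of the start with a score of 10.8 (rank 815 of 3102). Pkm encodes the muscle-type pyruvate kinase, which makes ATP and pyruvate in the last step of glycolysis (chromosome 9, 59656576 to 59679372, plus strand). Its summit lay 182 bp upstream of the upstream start with the same score and rank, and 488 bp from the end of the noncoding gene Gm51708. Both stood above 72.1% of the list, at a score that 51 summits shared. Eno1 encodes enolase, which forms phosphoenolpyruvate (chromosome 4, 150236708 to 150248879, plus strand). Its summit scored 2.44 (rank 2723 of 3102, above 7.83% of the list) and lay 435 bp inside the gene end but 54 bp upstream of the annotated start at 150237197.

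The other lists held no summit near these 3 genes. For Pgk1 the nearest summit lay 229525 bp away in RT7 4-OHT, against 229622 bp in RT7 EtOH, and 229572 bp away in RT10 4-OHT. For Pkm it lay 1377331 bp away in RT7 4-OHT, against 1074496 bp in RT7 EtOH, and 1201547 bp away in RT10 4-OHT. For Eno1 it lay 631917 bp away in RT7 4-OHT, against 437883 bp in RT7 EtOH, and 631832 bp away in RT10 4-OHT. As the RT7 EtOH list lacked these summits too, their presence differed between the lines in EtOH as well as between the treatments in RT10.

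Pgam1 encodes phosphoglycerate mutase, which moves the phosphate of 3-phosphoglycerate (chromosome 19, 41911871 to 41918665, plus strand). Its nearest summit lay 62698 bp away in RT7 4-OHT, against 62670 bp in RT7 EtOH, and 63623 bp away in RT10 4-OHT, against 62586 bp in RT10 EtOH. Ldha encodes the A subunit of lactate dehydrogenase (chromosome 7, 46842274 to 46855627, plus strand). Its nearest summit lay 46371 bp from a gene end in RT7 4-OHT, against 46341 bp in RT7 EtOH, and 46279 bp in RT10 4-OHT, against 46394 bp in RT10 EtOH. The nearest distance of each of these 2 genes was thus alike in all 4 lists, and no list placed a summit inside them.

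**Figure D3:**
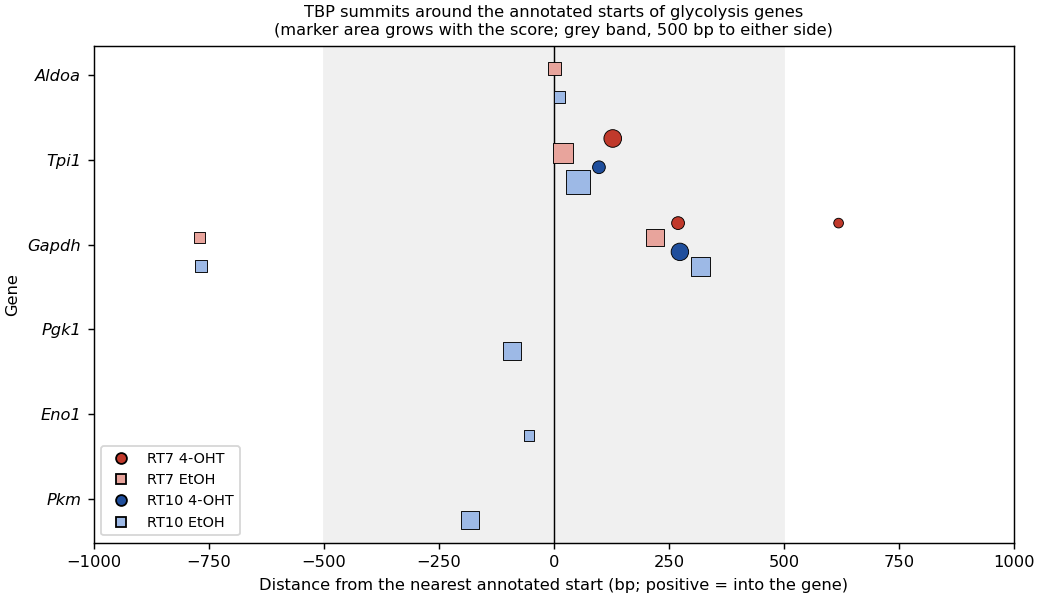
Distance of each TBP summit from the nearest annotated start of its gene (bp, positive into the gene) for the 6 glycolysis genes with a summit within 500 bp of a start, by list (circles for 4-OHT, squares for EtOH), with marker area growing with the score. The Tpi1 summits lie 19 to 128 bp and the main Gapdh summits 220 to 318 bp downstream of the start, whereas those of Pgk1, Eno1 and Pkm lie 54 to 182 bp upstream.

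The Gapdh and Tpi1 summits lay further downstream than most summits near protein-coding starts. Over the 4 lists, the median offset of summits within 500 bp of such a start was 109 to 119 bp upstream. In RT7 4-OHT 7.05% of these summits lay 200 bp or more downstream of the start, in RT7 EtOH 5.51%, in RT10 4-OHT 5.79% and in RT10 EtOH 5.89%. All 4 Gapdh summits lay in that range. The upper quartile was 56 bp downstream in RT7 4-OHT, 7 bp in RT7 EtOH, 42 bp in RT10 4-OHT and 23 bp in RT10 EtOH, so each Tpi1 summit also lay beyond it.

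**Figure D4:**
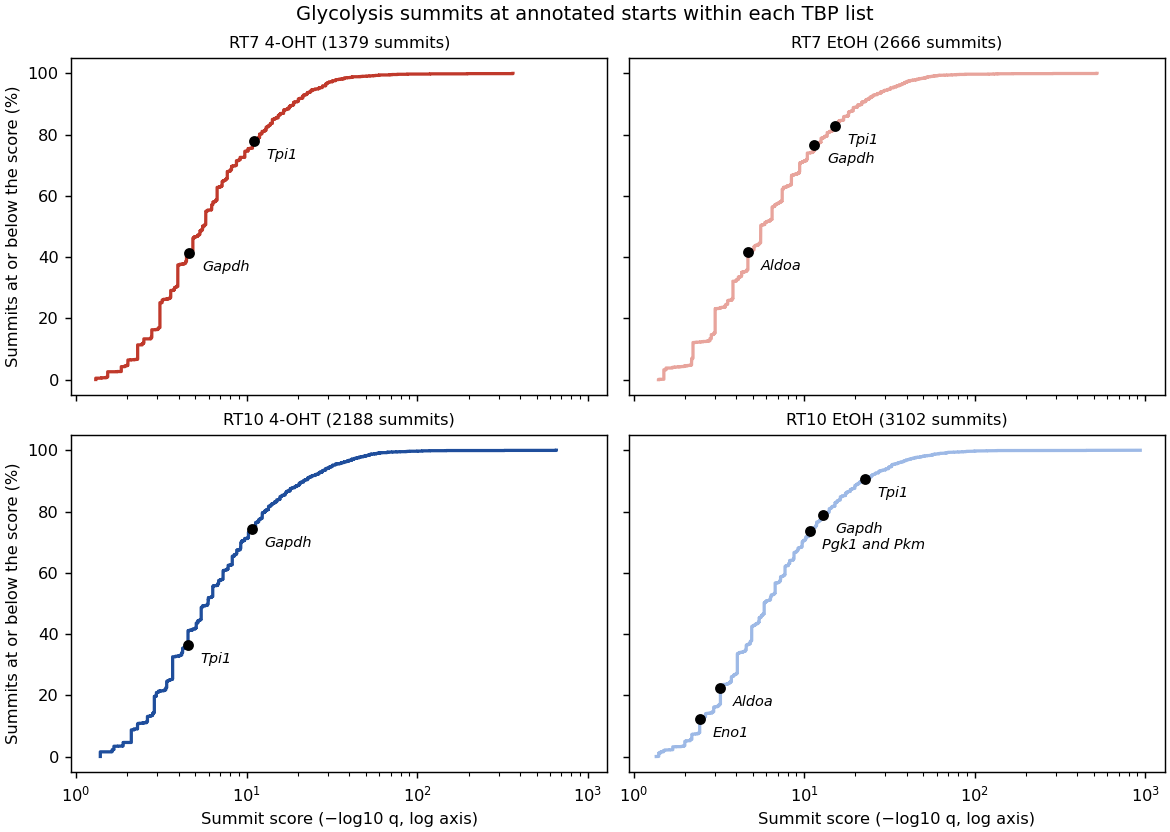
Cumulative share of summits (%) at or below each score (−log10 q, log axis) in the 4 TBP lists, with the glycolysis summits within 500 bp of an annotated start as black points. In RT10 EtOH the members run from Eno1 at 2.44 to Tpi1 at 22.6, and in RT10 4-OHT Gapdh at 10.7 stands above Tpi1 at 4.51.

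The design sets deletion of Taf7 or Taf10 against EtOH in the same line. At gene ends, 1 of 2 members bound in RT7 EtOH (Tpi1) was kept, that is, had a 4-OHT summit within 250 bp of its EtOH summit, and 1 of 5 in RT10 (Tpi1). Among all protein-coding genes with an EtOH summit at a gene end, 43.2% were kept in RT7 and 49.4% in RT10. At annotated starts, 2 of 3 members were kept in RT7 and 2 of 6 in RT10, in both lines Gapdh and Tpi1, against 42.4% of protein-coding genes in RT7 and 48.7% in RT10. No member had a start summit in a 4-OHT list without one in the EtOH list of the same line. With so few members, neither share can be set apart from that of all protein-coding genes.

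Genes with higher EtOH scores were kept more often. When protein-coding genes bound at a start were split at the quartiles of their EtOH scores, RT7 kept 14.1%, 25.1%, 48.4% and 86% of them from the lowest scores to the highest. RT10 kept 23.0%, 36.2%, 53.1% and 87.7%. In RT10, 66 of 73 other genes with a score within 1.2-fold of that of Tpi1 were kept (90.4%), and 106 of 153 at the score of Gapdh (69.3%). At the score of Pgk1 and Pkm, which were not kept, 83 of 142 other genes were kept (58.5%). At the low scores of Aldoa and Eno1, which were not kept, the shares were 35 of 139 (25.2%) and 19 of 97 (19.6%). In RT7 they were 55 of 77 (71.4%) at the score of Tpi1 and 69 of 109 (63.3%) at that of Gapdh, both kept, and 48 of 186 (25.8%) at that of Aldoa, which was not. Each member but Pgk1 and Pkm thus had the outcome of most genes of like score. Divergent genes can share a summit, so these genes are not independent.

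The patterns across lists were common ones. Of 1550 protein-coding genes with a summit at a start in at least 1 list, 378 had one in all 4 lists like Tpi1 and Gapdh (24.4%), 188 in both EtOH lists alone like Aldoa (12.1%), and 309 in RT10 EtOH alone like Pgk1, Pkm and Eno1 (19.9%). In the RT10 EtOH list, the 6 bound members had a median score of 10.8 at their starts, against 6.67 for the 1194 bound protein-coding genes. In RT7 EtOH the 3 bound members had a median of 11.5, against 6.49 for 1041 genes. In the 4-OHT lists Gapdh and Tpi1 lay at 4.61 and 11.1 in RT7, around the median of 5.76 for 539 genes, and at 10.7 and 4.51 in RT10, around the median of 6.33 for 748 genes.

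List length bears on these counts, as both EtOH lists are longer. With each EtOH list shortened to the length of its 4-OHT list, the members bound at annotated starts were 2 in RT7 4-OHT, against 2 in RT7 EtOH (Gapdh and Tpi1 in both). They were 2 in RT10 4-OHT, against 4 in RT10 EtOH, where Pgk1 and Pkm stayed in the list beside Gapdh and Tpi1. Whichever way tied scores were taken, these counts held. The Aldoa and Eno1 summits were below the length limit. The part of read depth in the differences between lists was not tested.

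The promoter letters of the 9 genes were GC-rich, and none held the letters TATAAA. The 15 annotated start windows of the members had 52.7% to 69% G and C (median 65%), against a median of 52.7% over all 32851 promoter windows of the table. They held a median of 23 CpG dinucleotides per 300 bases, against 7 over all windows. TATAAA, the core of the known TBP site, was in 0 of the 15 windows, against 13.6% of all windows. The looser TATANA, added after the sequences had been read, had its first letter 40 to 20 bases before the start on the coding strand in 1 of 15 windows, that of Tpi1, whose match begins 30 bases before the start, against 3.11% of all windows. Anywhere in the window and on either strand, TATANA was in 2 of 15 windows, those of Tpi1 and Ldha, against 24.7% of all windows. GGGCGG was in 10 of 15 windows, against 35.7% of all. It was found at every member but Gapdh, against 38.2% of all 27025 genes with a window. These windows and genes were not limited to protein-coding genes. Of the protein-coding genes bound at a start in EtOH, 780 of 1041 held GGGCGG in RT7 and 882 of 1194 in RT10. Among all protein-coding genes bound at a start in EtOH, those with TATANA anywhere in a window were kept in 59.6% of 250 cases in RT7, against 36.9% of 791 without it, and in 61.8% of 280 cases for RT10, against 44.7% of 914. Scores were not matched in this comparison. Pgk1 held 5 GGGCGG matches, 4 of them between 2 and 31 bases after the start.

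The hypoxia and E-box letters were also found at genes without a summit. ACGTG was in 7 of 15 windows, against 19.6% of all, and at 6 of 9 members, against 21.8% of all genes with a window, protein-coding or not. Of the protein-coding genes bound at a start in EtOH, 395 of 1041 held it in RT7 and 441 of 1194 in RT10. Ldha held 5 matches in the window of its upstream start, which make 3 separate sites, as each CACGTG is read as ACGTG on both strands, and Pgk1 held 2 sites. Both CACGTG matches of Ldha, 145 and 48 bases before that start, made it the only member with this form of the E-box, which 7.15% of all windows hold. Ldha also held the only TGACGTCA, beginning 12 bases before the start, which 1.79% of all windows hold. CCAAT was in 7 of 15 windows, against 37.4% of all, at Pgk1, Pkm, Eno1 and Aldoa. Some windows of Eno1 and Aldoa overlap, so a site there can count more than once. Counted by gene, CCAAT was at 4 of 9 members, against 41.1% of all genes with a window. By the rule of annotated starts, these 4 genes are those bound in EtOH and in no 4-OHT list, which was noticed after the values were seen. By the gene end rule Aldoa was bound in no list. Over all protein-coding genes bound at a start in EtOH, 274 of 623 with CCAAT were kept in RT7, against 167 of 418 without it, and 348 of 694 in RT10, against 234 of 500. A match is a run of letters and says nothing of what binds there.

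Other genes of glucose uptake, glycolysis and its side branches numbered 53, and few were bound. At gene ends, 1 had a summit in RT7 4-OHT (1.89%), against 2 in RT7 EtOH (3.77%), and 3 had one in RT10 4-OHT (5.66%), against 6 in RT10 EtOH (11.3%). The shares of all protein-coding genes were 2.74% for RT7 4-OHT, 5.32% for RT7 EtOH, 3.87% for RT10 4-OHT and 5.96% for RT10 EtOH. The order of these counts did not hold under every rule. With all lists at equal length, 1 was bound in RT7 4-OHT, against 1 in RT7 EtOH, and 3 in RT10 4-OHT, against 2 in RT10 EtOH. At annotated starts, 44 of the 53 could be measured. Of these, 3 were bound in RT7 4-OHT (6.82%), against 3 in RT7 EtOH (6.82%). In RT10, 4 were bound in 4-OHT (9.09%), against 5 in EtOH (11.4%). The shares of all protein-coding genes at starts were lower, at 3.08% for RT7 4-OHT, 5.95% for RT7 EtOH, 4.28% for RT10 4-OHT and 6.83% for RT10 EtOH, which was not tested. Slc2a1, which encodes the glucose transporter GLUT1, was the only one bound in all 4 lists. It scored 3.59 in RT7 4-OHT (rank 978 of 1379), against 15.1 in RT7 EtOH (rank 456 of 2666), and 13.9 in RT10 4-OHT (rank 388 of 2188), against 11.3 in RT10 EtOH (rank 785 of 3102). Its summits lay 7 to 51 bp upstream of the start and 11 to 55 bp from an end of the noncoding gene Gm52706. They cannot be assigned to Slc2a1 alone.

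At gene ends, the remaining pathway genes were bound in RT10 or in a single list. Bpgm, which encodes the enzyme that makes 2,3-bisphosphoglycerate, scored 5.41 in RT10 4-OHT, against 10.8 in RT10 EtOH. Bsg, which encodes basigin, a chaperone of lactate transporters, scored 5.41 in RT10 4-OHT, against 2.44 in RT10 EtOH, from summits 534 bp apart, of which the 4-OHT summit also lay near Gm25794. RT10 EtOH alone held summits at Adpgk, an ADP-dependent glucokinase gene (4.06), at G6pdx, which encodes the glucose-6-phosphate dehydrogenase of the pentose phosphate pathway (4.06), and at Slc16a1, which encodes the lactate transporter MCT1 (2.95). RT7 EtOH alone held one at Pdk1, which encodes a kinase that inhibits pyruvate dehydrogenase (1.51). The hexokinase genes Hk1 and Hk2 and the phosphofructokinase genes Pfkl, Pfkm and Pfkp, whose enzymes act at flux-controlling steps, had no summit within 500 bp of a gene end in any list. Pfkm held a summit further inside the gene in RT7 EtOH (10.4, 5917 bp from the nearer end) and in RT10 EtOH (4.83, 6013 bp). The nearest 4-OHT summits lay 782852 bp from it in RT7 and 82823 bp in RT10. In Hk2, RT10 EtOH held a summit 1000 bp from the nearer end (3.23).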

How the data were processed

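TBP CUT&RUN libraries of RT7 and RT10 ES cells were analysed as 4 summit lists, 1 per line and treatment. Each deposited value is the −log10 q-value of a TBP summit, called by the authors over the IgG control of the same line and treatment, as the peak names show. The submitters' processing notes name mm10, cutadapt 4.0, Bowtie2 2.4.4, SAMtools 1.15.1, bedtools, deepTools and MACS2 2.2.7.1, without roles or parameters. The threshold and whether the 2 libraries were pooled are not given in the sources used here. The lowest score was 1.30, and −log10 of 0.05 is 1.30. TAF7, TAF10 and TAF12 libraries were not used here. Groups were taken from sample titles, since for 2 IgG libraries (RT10 4-OHT and RT7 EtOH) the treatment label differs from the title.

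Gene ends came from the RefSeq table and strand, annotated starts and sequence from the RefSeq promoter table, both GRCm38.p6. All 9 members were matched in both, and 44 of the 53 other pathway genes in the promoter table. A gene was bound with a summit within 500 bp, and kept when a 4-OHT summit lay within 250 bp of its EtOH summit. The named genes were all members, pathway genes bound at a gene end in at least 1 list, other genes within 500 bp of a member's summit, and the 3 genes most like the member bound in most lists. Outside this rule, ES cell markers, copies of members, genes near a pathway summit, hexokinase and phosphofructokinase genes and 4 pathway genes under other observations are named. The members and lists were chosen with earlier results of these data known. Depth per library is unknown and gives no precision, and with 1 list per group no test was run. Alternatives were other distances, a score minimum of 10, equal list lengths and annotated starts in place of gene ends. Python 3.11.15, NumPy 2.4.6, pandas 2.3.3 and matplotlib 3.10.9 were used, and the matching of summits to genes was tested on simulated data.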

Additional observations from a re-analysis of the deposited data

How the results depend on the processing

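No paired analysis was possible because each line and treatment has 1 summit list that carries no replicate number, and no replicate was left out. The counts are small and moved with the rules, by construction where lists were shortened or windows changed. Of 98 recomputed counts 61 stayed within 1.5 times the reported count. With gene end distances of 1000 or 2000 bp, 2 members were bound in RT7 4-OHT in place of 1, as Gapdh entered. With scores of at least 10, and with all 4 lists at 1379 summits, the counts were 0 in RT10 4-OHT, 1 in RT7 EtOH and 3 in RT10 EtOH. From annotated starts (added after seeing the data) RT7 4-OHT had 2 members at 500 or 1000 bp, also with shortened lists. RT10 4-OHT had 1 at 250 bp, and 1 at 500 bp with equal lists. Members kept in RT7 were 0 at a shared distance of 100 bp, 2 with a gene end distance of 1000 bp and 2 at annotated starts, and in RT10 2 at annotated starts. Other pathway genes bound in RT7 4-OHT were 2 at 1000 or 2000 bp, 0 with scores of at least 10 and 3 at annotated starts. In RT7 EtOH they were 1 at 250 bp, 1 with scores of at least 10 and 1 with equal lists. In RT10 4-OHT they were 1 with scores of at least 10, and in RT10 EtOH 3 at 250 bp and 2 with scores of at least 10 or equal lists. In RT10 the order of the counts, fewer members bound in 4-OHT than in EtOH, held in all these settings. In RT7 it became a tie (2 and 2, or 1 and 1) with a gene end distance of 1000 bp, with scores of at least 10 and with equal or shortened lists. Read depth per list is unknown and limits what a missing summit can show.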

Other observations

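Slc2a3, which encodes the glucose transporter GLUT3, was chosen after its values were seen. It had no summit within 500 bp of a gene end, but summits inside the gene record in all 4 lists, the highest of them 14792 to 14848 bp from the nearer end. The highest summit scored 9.86 in RT7 4-OHT, against 32.3 in RT7 EtOH, and 9.35 in RT10 4-OHT, against 24.5 in RT10 EtOH. The EtOH scores exceeded those of every glycolysis enzyme gene in the same list. Its 4-OHT and EtOH positions were 23 bp apart in RT7 and 13 bp apart in RT10. Summits at 2 other places in the gene record were found in all 4 lists, and their scores are likewise read within each list. Those 31785 to 31918 bp from the nearer end scored 7.34 in RT7 4-OHT, against 7.31 in RT7 EtOH, and 1.63 in RT10 4-OHT, against 20.2 in RT10 EtOH. Those 35714 to 36015 bp from it scored 2.75 in RT7 4-OHT, against 2.19 in RT7 EtOH, and 6.33 in RT10 4-OHT, against 16.3 in RT10 EtOH. The promoter table holds no start for Slc2a3. Whether any of these summits lies at a promoter inside the gene record, as at Gapdh and Aldoa, was therefore not examined. In all, 3 summits lay within the gene or 500 bp around it in RT7 4-OHT, against 5 in RT7 EtOH, and 7 in RT10 4-OHT, against 5 in RT10 EtOH.

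Pfkfb2, Pfkfb4 and Gpd2 were also chosen after their values were seen, as genes with a summit at an annotated start and none at a gene end. Pfkfb2, which encodes an enzyme that sets fructose 2,6-bisphosphate levels, had a start summit in both 4-OHT lists (3.10 in RT7 and 4.53 in RT10) and in neither EtOH list, a pattern shared by 10 of 1550 bound protein-coding genes (0.645%). Its nearest EtOH summits lay 430379 bp away in RT7 and 252857 bp away in RT10. Pfkfb4, a gene of the same family, was bound in RT10 4-OHT (5.41) and in RT7 EtOH (6.72). Gpd2, which encodes the mitochondrial glycerol-3-phosphate dehydrogenase, was bound in RT7 4-OHT (2.30).

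The genes whose ranks over the 4 lists were most like those of Tpi1 were H4c12, a histone H4 gene, Rnasek, which encodes ribonuclease kappa, and Rab40c, which encodes a small GTPase. The measure was the Euclidean distance of the share of each list below the gene's score, over 4 lists, and was 11.0, 13.8 and 14.2 percentage points. Named copies of the members, such as Gapdh-ps14, Ldha-ps and Eno1b, numbered 23 in the gene table, and 0 had a summit within 500 bp of an end in any list. Of the 21900 protein-coding genes, 1718 had one in at least 1 list, and with so few copies the 0 cannot be set apart from that share. Copies under other names were not searched.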
